A study of Mus musculus with 7 samples.

Results

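The mitochondrial carrier family Slc25 was described here through the 46 protein-coding genes of the deposited brown fat table whose symbols begin with Slc25a, out of 55487 genes listed. 1 further gene that fits this name pattern is not analysed here, and family proteins with other names, such as the uncoupling proteins, were kept apart as related genes. The samples are bulk RNA from brown adipose tissue, a fat that burns fuel for warmth, and come from 7 NOD/ShiLtJ mice, which are prone to autoimmune diabetes. 4 mice were given CB-100, a preparation of secreted material above 100 kDa collected in buffer from brown adipocytes, by subcutaneous injection at 1.5 mg per kg of body weight for 7 days. 3 mice were sham, given KRBH buffer, and their labels repeat the CB-100 schedule without one of their own. The mice had a blood glucose of 190 to 230 mg/dL and their brown fat was collected 2 to 8 weeks after injection, and neither age nor batch is stated. All CB-100 titles carry the code nd and all sham titles the code d, so that whatever these codes mark cannot be told apart from the injection.

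Carriers of this family sit mostly in the inner mitochondrial membrane, which is closed to charged metabolites, and exchange one solute for another between cytosol and matrix. They bring ADP, phosphate, amino acids, cofactors and iron into the matrix and let ATP, citrate and other products out. In brown fat the same family supplies the uncoupling protein that turns fuel oxidation into heat, and a branched-chain amino acid carrier that fuels it.

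The summed level of the family overlapped between the groups, and single carriers moved in opposite directions within it. The 46 members together reached 2836 ± 478 CPM (SD) over the 4 CB-100 libraries and 2853 ± 248 CPM (SD) over the 3 sham libraries, where CPM is a count scaled by the library's TMM-adjusted total. Of the 46 members, 39 passed the filter on low counts and were tested. Slc25a32, the folate carrier, and Slc25a5, an ADP/ATP carrier, fell, Slc25a38, the glycine carrier, rose, and 36 did not pass. A member passed where edgeR's quasi-likelihood test gave an adjusted p under 0.05, with Benjamini-Hochberg adjustment over all 16823 genes tested. Among all tested genes 2.28% were called lower and 1.42% higher, against 5.13% and 2.56% of the tested members, and 3 calls among 39 genes are too few to set the family apart from these shares. The median log2 change was 0.10 over the tested members and 0.03 over all tested genes, with 18 member estimates below 0 and 21 above. In 4 members every CB-100 library lay below every sham library, and in 3 members above, where 12.2% and 11.1% of all tested genes did so.

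**Figure D1:**
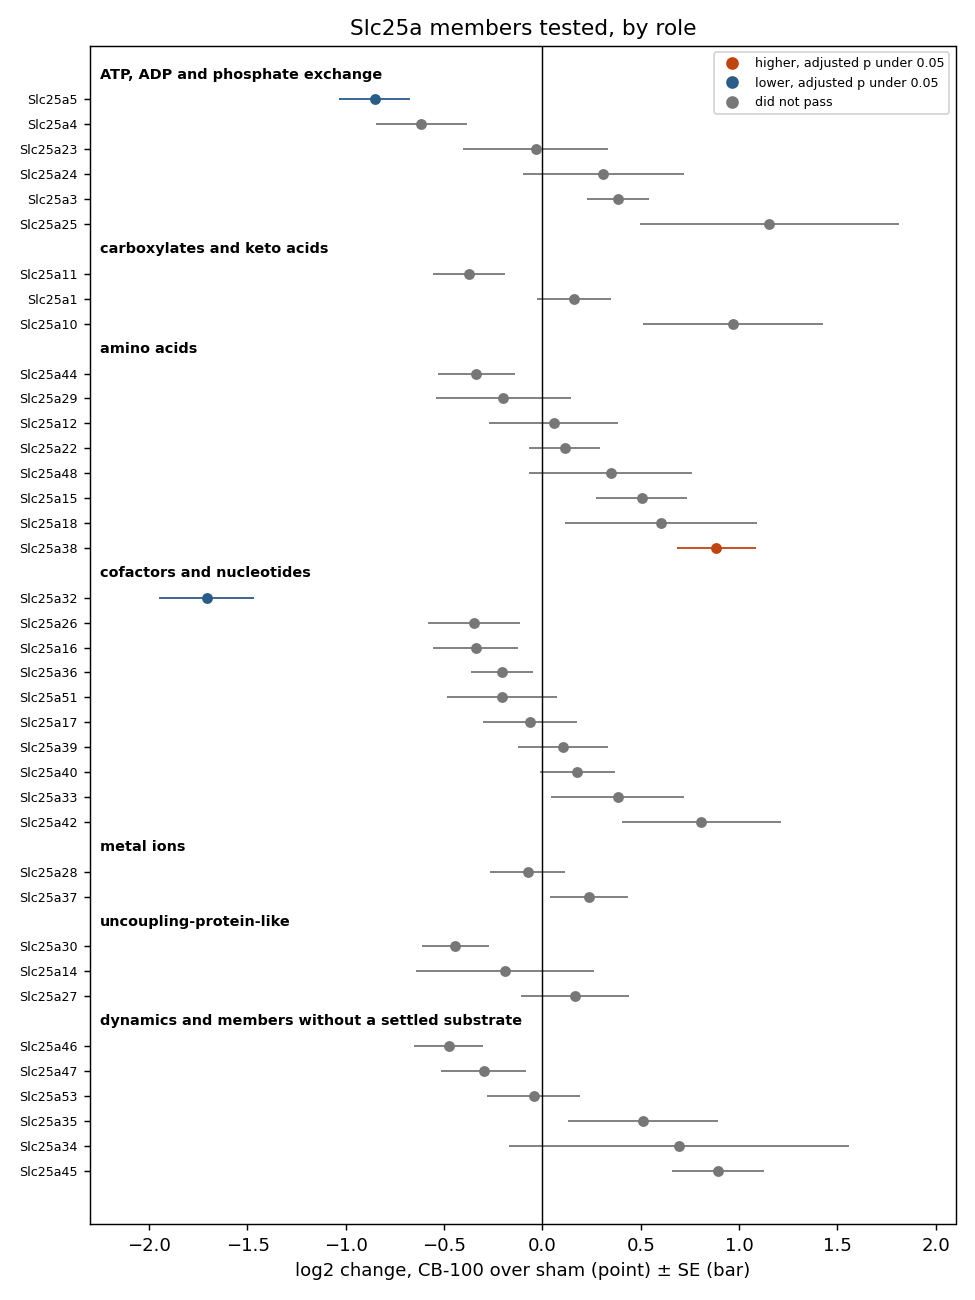
Log2 change of CB-100 over sham (x axis, point, with its SE as a bar) for 38 of the 39 tested Slc25a members, grouped by what they carry. Slc25a32 at -1.71 and Slc25a5 at -0.85 are the called decreases, Slc25a38 at 0.88 is the called increase, and the other 35 drawn did not pass.

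Library totals ran from 10815101 to 28528471 counts in CB-100 and from 14843173 to 19547048 in sham, and members took 27656 to 53601 counts against 45187 to 60552. Mitochondrially encoded genes took 22.3% to 36.3% of the counts in CB-100 and 14.3% to 22.8% in sham. The small structural RNAs 7SL and 7SK took 9.54% to 14.4% against 5.89% to 8.35%, and protein-coding genes 76.2% to 80.0% against 83.0% to 86.5%, in both cases without overlap. The part of these shifts in the results was not tested. The calls were as many when mitochondrially encoded genes were left out or protein-coding genes alone were used. Those fits scale the remaining genes anew, so they cannot show whether the shifts have a part. Of 9 brown adipocyte markers all 9 passed the filter, and their summed level ran from 1293 to 3428 CPM in CB-100 and from 1123 to 2049 CPM in sham. That sum includes Ucp1, at 450 to 2237 CPM in CB-100 and 46.1 to 875 CPM in sham. Their estimates were above 0 for 6 and below 0 for 3, with a median log2 change of 0.17, and 0 were called. The marker Dio2 (log2 change 3.10, edgeR adjusted p = 0.137) lay higher in every CB-100 library. Of 5 general adipocyte markers 4 had estimates below 0, with a median log2 change of -0.66, 0 were called, and their summed level ran from 4098 to 5772 CPM in CB-100 and from 5058 to 8043 CPM in sham. Adipoq, the hormone adiponectin (log2 change -0.91, edgeR adjusted p = 0.0512), and Lipe, a fat-splitting lipase (-0.66 and 0.131), lay lower in every CB-100 library, and their part in the results was not tested. The 13 skeletal muscle markers, each above 0 in all libraries, summed to 329, 466, 2467 and 479 CPM in CB-100. In sham they summed to 906, 2017 and 1670 CPM, so that only CB-100 replicate 3 was not below every sham library. Of the 13 markers 11 had estimates below 0 and 2 above, with a median log2 change of -0.81, and 0 were called. In bulk tissue, fewer cells of a type and less RNA per cell cannot be told apart. Counts of Xist and Y-linked genes read 1 mouse of each group as male, CB-100 replicate 3 and sham replicate 3.

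Among the 35 members with an entry in the promoter table of RefSeq, the 250 bases before the RefSeq start of Slc25a5 and of Slc25a38 are shown, since both were called. Slc25a32 has no entry. Sequences are 5′ to 3′ on the gene's strand of GRCm38.p6, at chrX:36795347-36795596 (plus strand) for Slc25a5 and chr9:120110132-120110381 (plus strand) for Slc25a38. In GENCODE M21, which starts some genes elsewhere than RefSeq, the last 8 bases of the Slc25a38 stretch and 0 bases of the Slc25a5 stretch lie inside the gene. Capitals mark matches, on either strand, to 7 motifs.
Slc25a5: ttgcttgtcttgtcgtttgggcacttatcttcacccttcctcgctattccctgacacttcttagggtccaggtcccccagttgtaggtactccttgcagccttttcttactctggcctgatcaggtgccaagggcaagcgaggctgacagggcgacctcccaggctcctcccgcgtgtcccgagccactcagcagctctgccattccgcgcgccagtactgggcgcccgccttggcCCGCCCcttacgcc
Slc25a38: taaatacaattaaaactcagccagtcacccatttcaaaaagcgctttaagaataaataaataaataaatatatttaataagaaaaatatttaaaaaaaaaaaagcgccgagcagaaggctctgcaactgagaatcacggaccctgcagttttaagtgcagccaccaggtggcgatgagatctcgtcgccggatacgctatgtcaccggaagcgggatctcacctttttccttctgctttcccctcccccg

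The motifs were the GC box GGGCGG, found in the Slc25a5 stretch as its reverse complement, the CCAAT box, the NRF1 motif, the ERR site AAGGTCA, the E-box CACGTG, the CRE TGACGTCA and an ATF4 composite site TGATGNAA. None of the 7 is in the Slc25a38 stretch. Over all 32851 promoters of the table, read in the same 250 bases, the GC box was in 32.7%, the CCAAT box in 33.8%, the E-box in 6.02%, the ERR site in 4.08%, NRF1 in 3.74%, the ATF4 site in 3.45% and the CRE in 1.55%. Of the 35 members with an entry, 24 held the GC box, 18 the CCAAT box, 7 the E-box, 2 the NRF1 site, 2 the CRE, 1 the ERR site and 0 the ATF4 site. A member counted if any of its entries held the motif, while the percentages count single promoters, so they may not be on the same scale. These matches describe the letters only.

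ATP leaves the matrix and ADP enters it through the adenine nucleotide carriers, encoded by Slc25a4 and Slc25a5, while Slc25a3 imports the phosphate that ATP synthase needs. Slc25a5 stood at 120, 104, 132 and 128 CPM in CB-100 replicates 1 to 4, against 180, 270 and 206 CPM in sham replicates 1 to 3. The groups did not overlap, and the CB-100 libraries lay closer together than the sham libraries. Slc25a5 fell 1.81-fold (log2 change -0.85 with SE 0.18 and an edgeR adjusted p of 0.0404). It lies on chromosome X, 36795651 to 36798807, on the plus strand of GRCm38. Its counts are non-whole in 6 of the 7 libraries and a processed copy, Slc25a5-ps, is annotated elsewhere in the genome, so that its count is uncertain. The call was lost without any 1 library other than CB-100 replicate 4 (log2 change -0.98 to -0.68 over the 7 omissions, edgeR adjusted p of 0.046 to 0.14), with sex in the fit (log2 change -0.85, edgeR adjusted p = 0.067), with a score of muscle markers in the fit (-0.73 and 0.19), in females alone (-0.94 and 0.22) and with a correction for exon length and GC content (-0.71 and 0.061).

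Slc25a4, the ADP/ATP carrier of heart, muscle and brown fat, had 162, 104, 186 and 130 CPM in CB-100 and 182, 274 and 214 CPM in sham. CB-100 replicate 3 reached above the lowest sham library, and the log2 change of -0.62 (SE 0.23 and an edgeR adjusted p of 0.147) did not pass. With a score of muscle markers in the fit it was -0.43 (edgeR adjusted p = 0.443). CB-100 replicate 3 held the highest summed level of muscle markers, and their part in its value was not tested. Slc25a3 had 143, 135, 136 and 164 CPM in CB-100, all above the 108, 128 and 95.8 CPM in sham, with a log2 change of 0.38 (SE 0.16 and an edgeR adjusted p of 0.182). Mean CPM of Slc25a4, Slc25a5 and Slc25a3 was 146, 121 and 144 in CB-100 and 223, 219 and 111 in sham. Per kb of exon, the summed level of Slc25a4 and Slc25a5 was 4.43 to 6.52 times that of Slc25a3 in CB-100 libraries. In sham libraries it was 9.60 to 12.5 times. Exon length here merges all annotated exons of a gene, 5550 bases for Slc25a3, so the size of the ratio depends on that length and is no measure of relative abundance. That ratio was chosen after its values were seen and was not tested.

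Slc25a23, Slc25a24 and Slc25a25 exchange ATP bound to magnesium for phosphate under the control of calcium. Slc25a23 averaged 114 ± 48.2 CPM (SD) over the 4 CB-100 libraries and 116 ± 23.1 CPM (SD) over the 3 sham libraries, with CB-100 replicate 4 at 45.4 CPM as the lowest. Slc25a25 had 9.16, 56.0, 16.9 and 19.1 CPM in CB-100 and 17.96, 11.3 and 4.75 CPM in sham, so that its log2 change of 1.15 had an SE of 0.66 and did not pass (edgeR adjusted p = 0.320). Slc25a24 gave 0.31 (SE 0.41). The testis-type ADP/ATP carrier Slc25a31, with 0 to 3 counts per library in CB-100 and 3 to 7 in sham, Slc25a41, with 0 to 1 against 1, and Slc25a54, with 0 against 0 to 1, were below the filter.

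**Figure D2:**
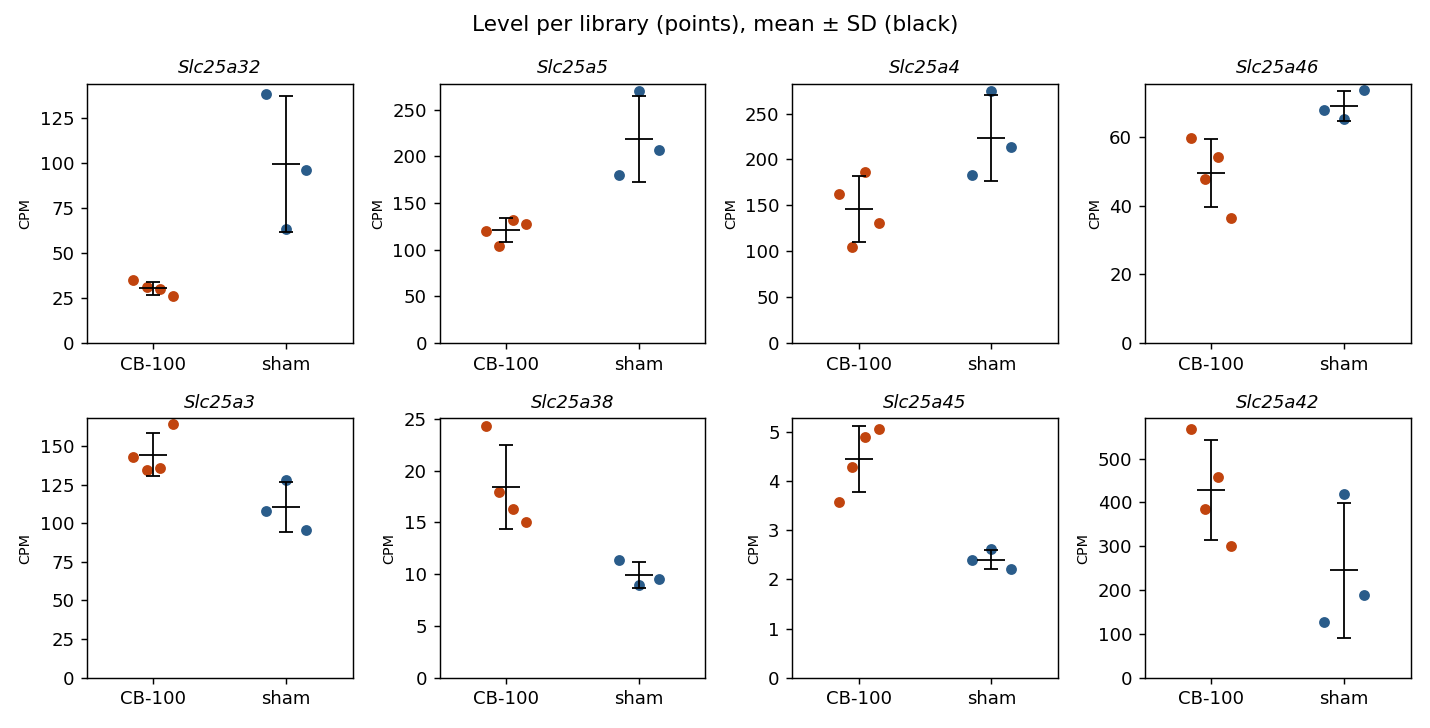
CPM (y axes, from 0) of 8 Slc25a members in each library, 4 CB-100 libraries at the left of each panel and 3 sham libraries at the right, with the group mean ± SD in black. Slc25a32, Slc25a5 and Slc25a46 lie lower in every CB-100 library, Slc25a3, Slc25a38 and Slc25a45 lie higher in every CB-100 library, and Slc25a4 and Slc25a42 overlap.

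Cofactor carriers held the largest decrease of the family. Slc25a32, which takes folate into the matrix for the handling of single-carbon units, stood at 34.8, 30.8, 30.1 and 25.96 CPM in CB-100, against 138, 63.0 and 96.3 CPM in sham. The CB-100 libraries were close to each other and the lowest sham library was well above them. Slc25a32 fell 3.27-fold (log2 change -1.71 with SE 0.24 and an edgeR adjusted p of 0.0215). In GRCm38 the gene spans bases 39091231 to 39112716 of chromosome 15 (minus strand), its counts are whole in all libraries and no exon of another annotated gene overlaps its exons. It stayed called in 4 of 7 omissions of a library. It was lost without CB-100 replicate 2 (edgeR adjusted p = 0.057), sham replicate 1 (log2 change -1.40, edgeR adjusted p = 0.063) or sham replicate 3 (0.11), as well as with a score of muscle markers in the fit (log2 change -1.83, edgeR adjusted p = 0.093) and in females alone (-1.73 and 0.16), where the estimates were no smaller.

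The other 10 cofactor and nucleotide carriers did not pass. Slc25a51, which imports NAD, had the highest level per kb of them, and its mean was 421 ± 143 CPM (SD) over CB-100 libraries, against 485 ± 105 CPM over sham libraries (log2 change -0.21). Slc25a39, a glutathione carrier, averaged 202 ± 56.4 against 188 ± 26.3 CPM, and its relative Slc25a40 gave a log2 change of 0.18. Slc25a42, a coenzyme A carrier, had 568, 385, 459 and 301 CPM in CB-100 and 126, 419 and 189 CPM in sham. Only sham replicate 2 reached into the CB-100 range, and the log2 change of 0.81 (SE 0.40) did not pass (edgeR adjusted p = 0.264). Slc25a26, for S-adenosylmethionine, gave -0.35. The pyrimidine nucleotide carriers Slc25a33 and Slc25a36 gave 0.38 and -0.21, Slc25a16 gave -0.34 and the peroxisomal carrier Slc25a17 -0.06.

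Amino acid carriers held the called increase. Slc25a38 imports glycine, from which the first step of heme synthesis starts in the matrix. It stood at 24.3, 17.9, 16.3 and 15.1 CPM in CB-100, against 11.4, 8.93 and 9.54 CPM in sham, and every CB-100 library was above every sham library. Slc25a38 rose 1.85-fold (log2 change 0.88 with SE 0.20 and an edgeR adjusted p of 0.0477), close to the threshold. It lies on chromosome 9, 120110374 to 120124504, on the plus strand of GRCm38, has whole counts and shares no exon bases with another annotated gene. The 7 of 8 erythroid markers that matched the table summed to 881 to 4551 CPM in CB-100 and 788 to 2204 CPM in sham, highest in CB-100 replicate 4, where Slc25a38 was the lowest of its group, and 0 of them were called. Their part in this result was not tested. The call was lost without any 1 library other than CB-100 replicate 4 (log2 change 0.72 to 0.99, edgeR adjusted p of 0.038 to 0.18), with sex in the fit (log2 change 0.87, edgeR adjusted p = 0.072), with a score of muscle markers in the fit (0.72 and 0.17), in females alone (0.90 and 0.24) and with the length and GC correction (0.82 and 0.070).

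Slc25a44, the branched-chain amino acid carrier of brown fat, averaged 84.9 ± 17.3 CPM (SD) over the 4 CB-100 libraries and 107 ± 16.3 CPM (SD) over the 3 sham libraries (log2 change -0.34 with SE 0.20 and an edgeR adjusted p of 0.327). Slc25a22, a glutamate carrier, averaged 104 ± 14.3 against 96.4 ± 19.1 CPM, and Slc25a18, the second glutamate carrier, gave a log2 change of 0.60 (SE 0.49) at 0.930 to 3.38 CPM against 0.962 to 2.24 CPM. Slc25a12, an aspartate-glutamate carrier of the malate-aspartate shuttle, averaged 10.5 ± 4.47 against 10.2 ± 2.04 CPM. Its liver-type relative Slc25a13 was below the filter, with 3 to 29 counts in CB-100 and 5 to 6 in sham. The ornithine carrier Slc25a15 gave 0.50 (SE 0.23), Slc25a48, placed in this group, 0.35, and the basic amino acid carrier Slc25a29 -0.20. Slc25a2, a second ornithine carrier, had 4 to 12 against 3 to 8 counts and was not tested.

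Carriers of carboxylates did not pass. Slc25a1, which exports the citrate that feeds fatty acid synthesis in the cytosol, had 169, 135, 144 and 201 CPM in CB-100 and 156, 122 and 156 CPM in sham, with overlap (log2 change 0.16, SE 0.19). Slc25a11, the oxoglutarate-malate carrier of the malate-aspartate shuttle, averaged 76.8 ± 13.3 CPM against 99.5 ± 16.5 CPM (log2 change -0.37, edgeR adjusted p = 0.256). Slc25a10, the dicarboxylate carrier, had 31.1, 57.4, 22.3 and 30.5 CPM in CB-100 and 7.60, 27.96 and 18.6 CPM in sham. Sham replicate 2 fell within the CB-100 range, and the log2 change of 0.97 (SE 0.46 and an edgeR adjusted p of 0.244) did not pass. Exons of a gene on the opposite strand overlap those of Slc25a10 and Slc25a11, and both have non-whole counts, so that they are uncertain. Over the family, 14 members have non-whole counts and 14 share exon bases with another gene, 12 of them on the opposite strand. Slc25a21, an oxodicarboxylate carrier, had 0 to 3 counts against 0 to 2.

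The iron carriers, mitoferrin 1 (Slc25a37) and mitoferrin 2 (Slc25a28), gave log2 changes of 0.24 (SE 0.20) and -0.08 (SE 0.19). Slc25a37 averaged 31.5 ± 7.48 CPM (SD) over the 4 CB-100 libraries and 26.8 ± 2.92 CPM (SD) over the 3 sham libraries. It was highest at 40 CPM in CB-100 replicate 4, the library with the most erythroid marker counts. Their part in its value was not tested, and its count is uncertain for opposite gene models and non-whole values. Slc25a28 averaged 24.3 ± 5.55 against 25.6 ± 2.22 CPM. Among carriers that resemble uncoupling proteins, Slc25a30 had 13.5, 17.8, 13.2 and 19.2 CPM in CB-100, each below the 22.1, 20.2 and 22.6 CPM in sham, and did not pass (log2 change -0.44 with SE 0.17 and an edgeR adjusted p of 0.161). Slc25a27 and Slc25a14 were at 2.06 to 4.02 and 0.639 to 2.00 CPM over all libraries and gave 0.17 and -0.19.

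Slc25a46, an outer membrane protein that acts on the shape and fusion of mitochondria rather than on a known solute, had 59.7, 47.9, 54.1 and 36.6 CPM in CB-100, all below the 67.9, 65.2 and 73.8 CPM in sham. Its log2 change of -0.48 (SE 0.17) did not pass (edgeR adjusted p = 0.137), and its count is uncertain for an opposite gene and non-whole values. Slc25a45 had 3.58, 4.29, 4.89 and 5.07 CPM in CB-100, above the 2.40, 2.61 and 2.21 CPM in sham without overlap. Its log2 change of 0.89 (SE 0.23) missed the threshold (edgeR adjusted p = 0.0654), while DESeq2 and limma voom called it (adjusted p = 0.027 and 0.042). Slc25a35 averaged 99.9 ± 36.1 against 70.2 ± 31.2 CPM, and 1151 bases of its exons are shared with Rangrf on the opposite strand. Slc25a34 had the widest relative spread within CB-100, at 63.1, 5.57, 4.67 and 29.1 CPM in CB-100 and 24.3, 8.93 and 14.3 CPM in sham (log2 change 0.69, SE 0.86). Slc25a47 and Slc25a53 gave -0.30 and -0.05, and Slc25a43, with 3 to 7 counts against 1 to 3, was not tested.

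**Figure D3:**
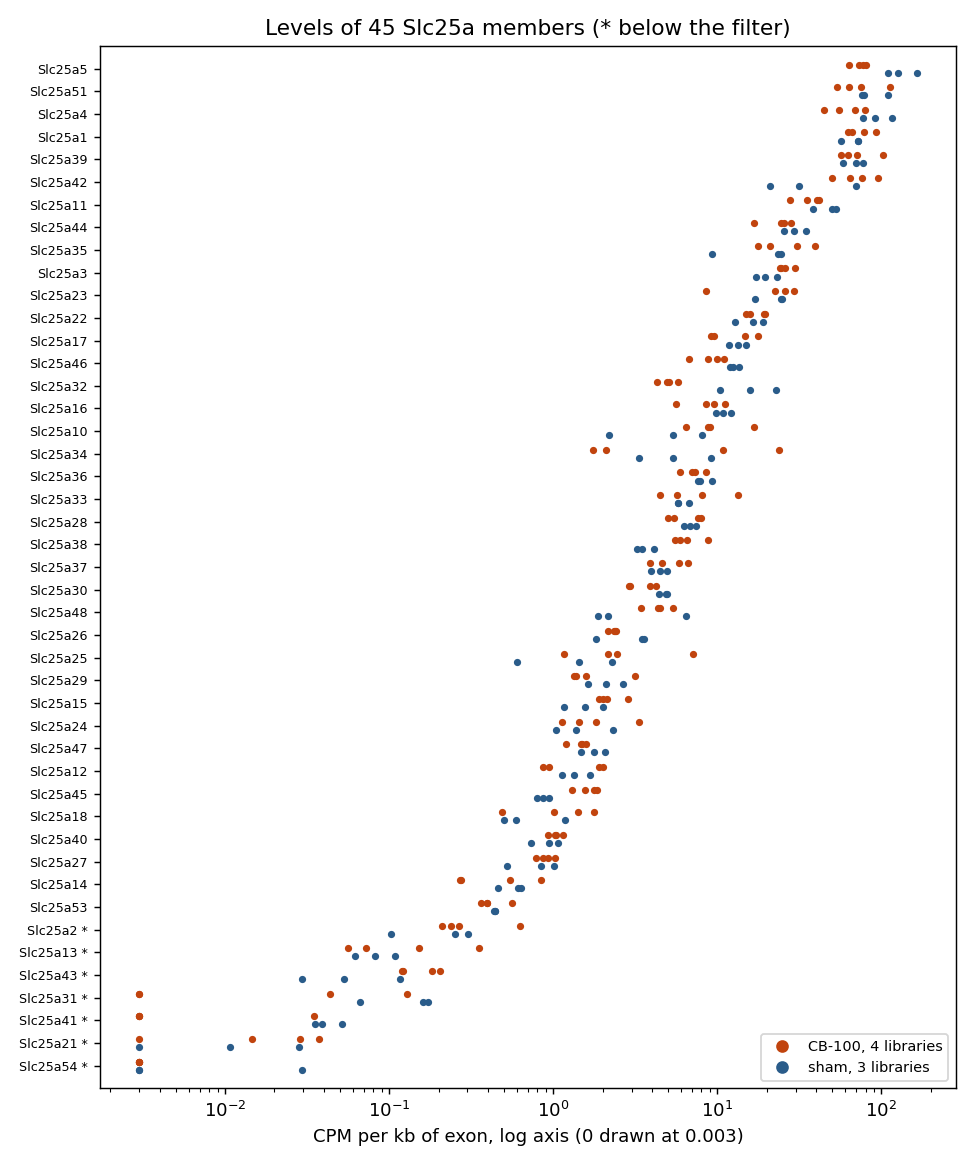
CPM per kb of exon (x axis, log scale) of 45 of the 46 Slc25a members in each of the 4 CB-100 and 3 sham libraries, ordered by the mean of the 7, with the 7 members below the filter starred. Slc25a5, Slc25a51 and Slc25a4 lead, and the starred members lie below 1 CPM per kb.

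Per kb of exon, the mean level over the 7 libraries was highest for Slc25a5 (99.0 CPM per kb), Slc25a51 (81.4), Slc25a4 (76.1), Slc25a1 (71.5) and Slc25a39 (71.1). The ranges over libraries of neighbours in this order overlapped, so the order among these 5 is not settled. It also depends on the exon length used, which merges all annotated exons of a gene. In CB-100 the means of Slc25a51 and Slc25a1 (76.4 and 74.9 CPM per kb) were above that of Slc25a5 (73.5), and in sham Slc25a5 (133) was above Slc25a4 (95.0) and Slc25a51 (88.1). On the plain CPM scale Slc25a51 and Slc25a42 together made up 26.9% to 33.8% of the family's sum in CB-100 and 21.3% to 28.1% in sham.

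Within groups, the members' median coefficient of variation was 22.2% in CB-100 and 19.8% in sham. CB-100 replicate 1 was the highest of its group for 19 of the 39 tested members, and CB-100 replicate 4 the lowest for 18. In sham, replicate 1 was the lowest for 18 members and replicate 3 the highest for 17. CB-100 replicate 4 was the deepest library and had the largest share of mitochondrially encoded counts, and its part in these values was not tested beyond leaving it out, after which the same number of members was called in each direction.

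**Figure D4:**
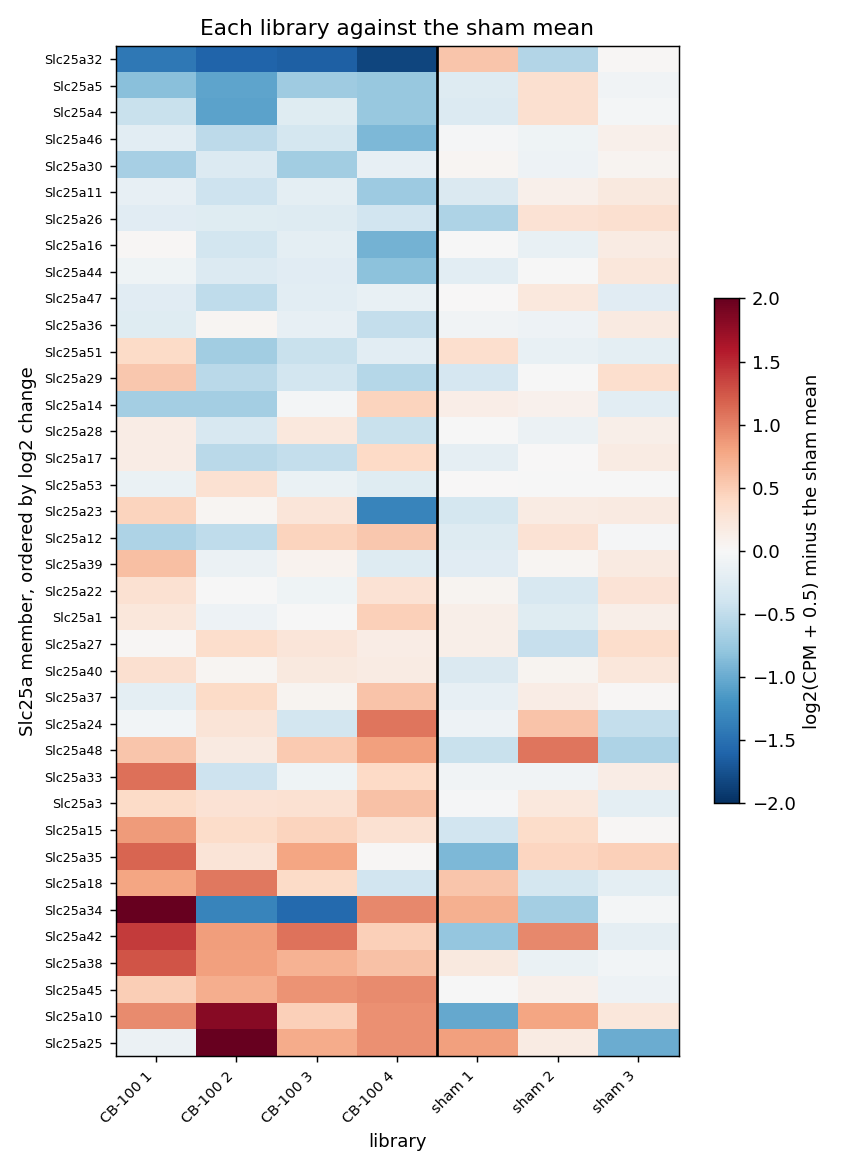
Log2(CPM + 0.5) minus the sham mean (colour) of 38 of the 39 tested Slc25a members (rows, ordered by log2 change) in 4 CB-100 libraries and 3 sham libraries. Slc25a32 at the top is low in each CB-100 library, while Slc25a34, Slc25a25 and Slc25a10 near the foot differ between libraries of 1 group.

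Genes that work beside the carriers were taken from 5 lists. Of 48 such genes 47 were tested, 3 fell, 1 rose and 43 did not pass, with a median log2 change of -0.12. Over all tested genes 2.28% were called lower and 1.42% higher, and so few calls do not set the lists apart. The shuttle enzymes, all but Gpd1 and Gpd2, make or use what the carriers move. Of all 12 in that list 7 had an unadjusted p under 0.05 in edgeR's test. The share over all tested genes was 23.9%. Estimates were below 0 for 9 of these enzymes and above 0 for 3, with a median of -0.58. Of the 12, 4 lay lower in every CB-100 library and 1 lay higher, where 12.2% and 11.1% of all tested genes did so. The higher gene was Me1, at 120 to 300 CPM in CB-100 against 69.4 to 82.9 CPM in sham. It is among the 7 and did not pass (log2 change 1.26 with SE 0.31 and an edgeR adjusted p of 0.0582). Its count is uncertain for non-whole values and an opposite gene overlapping its exons. After adjustment 1 of 12 fell and 0 rose. That gene was Mdh1, the cytosolic malate dehydrogenase of the malate-aspartate shuttle, with 129, 88.0, 119 and 119 CPM in CB-100 against 267, 288 and 333 CPM in sham. Mdh1 fell 2.61-fold (log2 change -1.38 with SE 0.18 and an edgeR adjusted p of 0.0204), and 52 bases of its exons are shared with a gene on the opposite strand. It stayed called in 5 of 7 omissions, not without sham replicate 1 (edgeR adjusted p = 0.058) or sham replicate 3 (0.11). The carriers of this shuttle, Slc25a11 and Slc25a12, did not pass, as given above.

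The outer membrane channels, through which solutes reach the carriers, gave 2 decreases of 3. Vdac2 had 101, 86.3, 108 and 84.5 CPM in CB-100, against 158, 169 and 181 CPM in sham (log2 change -0.83 with SE 0.15 and an edgeR adjusted p of 0.0329). Vdac3 had 48.4, 43.7, 54.7 and 43.5 CPM in CB-100, against 68.0, 85.4 and 87.1 CPM in sham (log2 change -0.75 with SE 0.15 and an edgeR adjusted p of 0.0351). Neither overlapped between the groups, while Vdac1 gave -0.31 and did not pass. Vdac3 has non-whole counts in all 7 libraries and Vdac2 in 1, with an opposite gene overlapping its exons, so that both are uncertain. Of 7 omissions of a library, each of Vdac2 and Vdac3 stayed called in 1, that of CB-100 replicate 4, with an edgeR adjusted p of up to 0.13 for Vdac2 and 0.14 for Vdac3.

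Of 15 tested inner membrane transporters outside the family 1 rose and 0 fell, with a median of 0.06. Sfxn5, a sideroflexin, had 95.0, 65.9, 65.3 and 77.8 CPM in CB-100 and 36.2, 45.6 and 35.3 CPM in sham, without overlap (log2 change 0.96 with SE 0.18 and an edgeR adjusted p of 0.0342). It stayed called in 2 of 7 omissions, those of CB-100 replicate 4 and sham replicate 2. On the import route that inserts carriers into the inner membrane, 0 of 12 passed, with a median of -0.17. There 2 of 12 had an unadjusted p under 0.05 in edgeR's test, against 23.9% of all tested genes. Timm10, a small chaperone of the space between the membranes, had the smallest p, at 10.3 ± 3.44 CPM (SD) over the 4 CB-100 libraries and 17.7 ± 2.78 CPM (SD) over the 3 sham libraries (edgeR adjusted p = 0.102). DESeq2 did not call it and limma voom did (adjusted p = 0.045).

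Of the 5 carriers named outside the Slc25a series 0 passed in edgeR's test, with 1 at an unadjusted p under 0.05, against 23.9% of all tested genes. Ucp2, an uncoupling protein of many tissues, had 67.0, 141, 81.3 and 75.3 CPM in CB-100 and 175, 153 and 133 CPM in sham (log2 change -0.75 with SE 0.26 and an edgeR adjusted p of 0.121). Only CB-100 replicate 2 reached the sham range, and DESeq2 called Ucp2 (log2 change -0.77, adjusted p = 0.0497). Ucp1, the heat-producing carrier of brown fat, ran from 450 to 2237 CPM in CB-100 and from 46.1 to 875 CPM in sham, with a log2 change of 1.99 (SE 0.98) that did not pass.

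**Figure D5:**
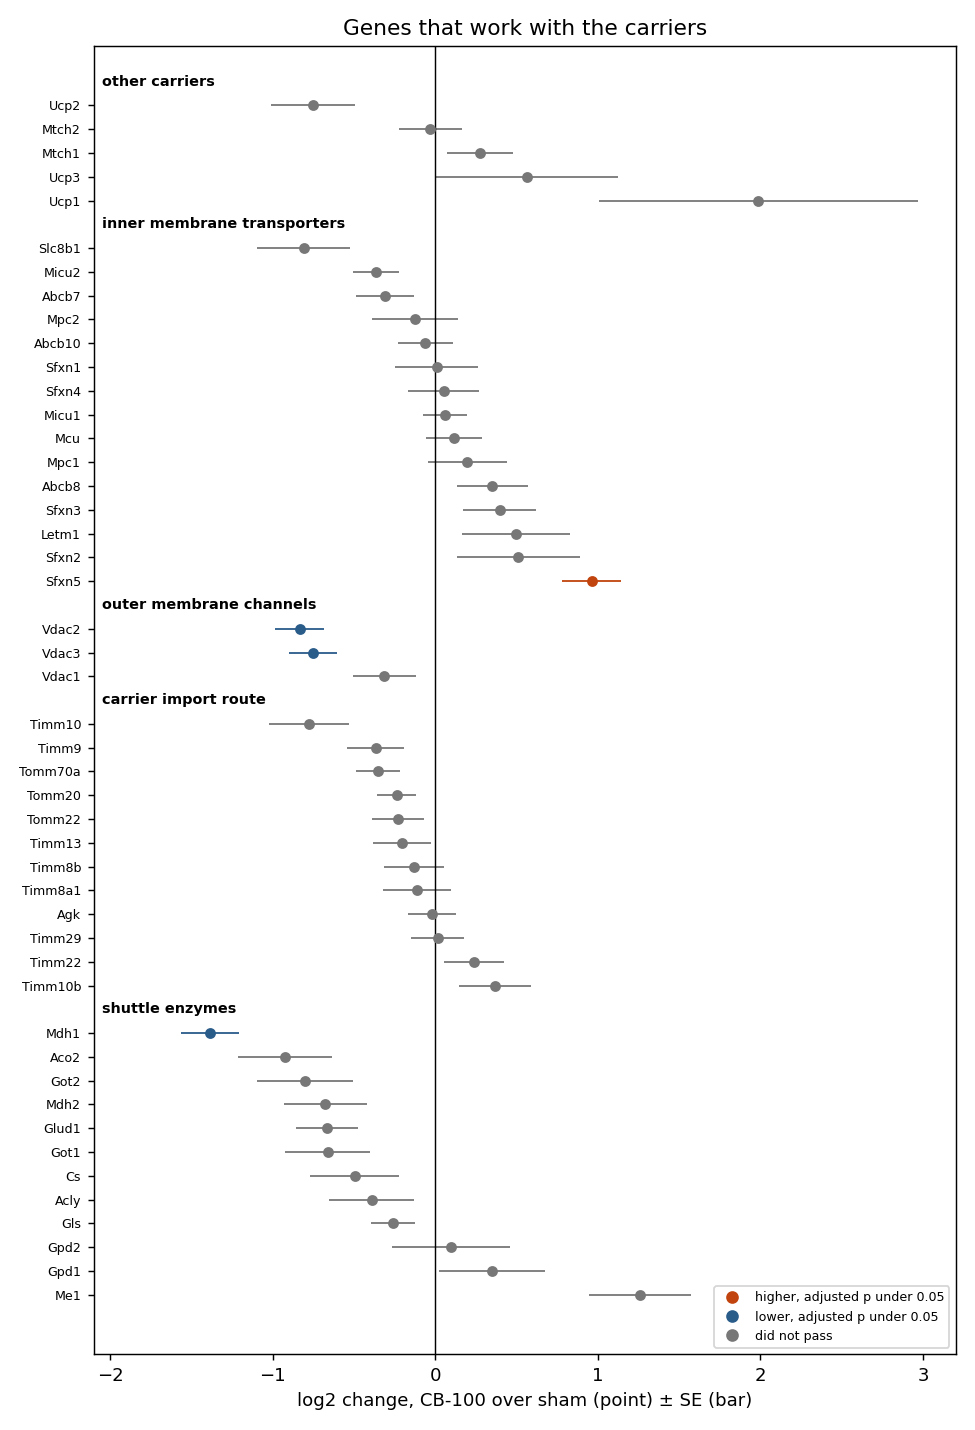
Log2 change of CB-100 over sham (x axis, point, with its SE as a bar) for the 47 tested genes of 5 lists around the carriers. Mdh1, Vdac2 and Vdac3 are the called decreases and Sfxn5 is the called increase.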

How the data were processed

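Brown fat RNA of 7 mice was sequenced on an Illumina instrument and STAR 2.7.9a placed the reads on the assembly of Ensembl release 101, per the labels' protocols. featureCounts 2.0.3 and Salmon 1.5.2 are listed in the submitters' processing notes without a stated role. The deposited values are the authors' expected counts, unnormalized, in a single table. How reads were counted, and whether by strand, is not given in the sources used here, so genes overlapping on opposite strands cannot be told apart.

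After removal of 287 repeated lines, 55487 genes remained, of which 99.5% matched GENCODE M21 (GRCm38) by identifier. Counts were rounded, filtered with filterByExpr and scaled by TMM, and CB-100 was tested against sham with edgeR 4.0.16 (quasi-likelihood, robust) in R 4.3.3 on all 16823 genes kept. The SE is the log2 change over the square root of F. Library totals were 10815101 to 28528471 counts, and the small number of mice limits precision. Nothing but animal codes in the titles marks replicates as separate mice. The p-values set the group difference against the spread between samples within groups, estimated with sharing over all genes kept. They reflect no spread other than that of these 7 samples. The test was also run on simulated data with known changes, drawn from the levels and spread of these libraries, and its outcome is not given here.

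Groups came from the treatment label. Named genes are called members, the 2 most abundant per role by CPM per kb of exon, the smallest p per role and, in related lists, called genes or the smallest p. Exon length is the merged length of all GENCODE M21 exons of a gene. Other members are given to complete the family, except that 1 tested member stays in the counts and sums and its own values are not reported here. The members and lists were chosen with earlier results of these data known. Alternatives were other scalings, filters, tests (DESeq2 1.42.0, limma 3.58.1), gene sets, covariates and libraries left out. A correction for exon length and GC content (mgcv 1.9.3) and females alone were chosen after seeing the data.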

Additional observations from a re-analysis of the deposited data

Results flagged for a closer look

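In the group of 4 CB-100 mice, Slc25a29, the basic amino acid carrier, stood at 8.16 CPM in CB-100 replicate 1, far above the 3.49 to 4.10 CPM of the other CB-100 libraries, while sham libraries held 4.22, 5.43 and 6.96 CPM. The gap over the group's range was 0.869, where 0.829 is the limit for 4 samples. Of 39 members examined this was the 1 that stood out, and chance gives about 1 in 20 groups. An interaction of sex and injection in edgeR's test passed for 0 of 39 members, with 0 at an unadjusted p under 0.05, resting on 1 male per group.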

How the results depend on the processing

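With 3 or 4 mice per group the calls rest on few libraries. Against 2 members called lower and 1 higher, both counts were 0 when tested against 1.5-fold, when a score of muscle markers was a covariate, and in females alone, where edgeR called 0 of all genes and 2578 had an unadjusted p under 0.05. Over all genes, where 383 were lower and 239 higher, the 1.5-fold test gave 7 and 2 and the muscle score 9 and 1. Members called lower and higher were 1 and 0 with sex as covariate, against 152 and 86 of all genes. They were also 1 and 0 with the length and GC correction, against 254 and 117 of all genes. DESeq2, limma voom and an adjusted p of 0.1 gave 2 members higher. Leaving out 1 library each gave 0 to 2 lower and 0 to 1 higher. In the lists around the carriers, with 3 lower and 1 higher, both counts were 0 under the fold test, with the muscle score and in females alone. DESeq2 gave 6 lower and 2 higher, limma voom 5 and 2, and an adjusted p of 0.1 gave 5 and 2. Without a filter 2 were higher, with the length and GC correction 0, and leaving out 1 library gave 0 to 4 lower and 0 to 2 higher. The other scalings and gene sets kept each count within 1.5 times.

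The members' median log2 change of 0.10 was -0.007 without sham replicate 1 and 0.16 without CB-100 replicate 2, the range over omissions. Small estimates changed sign. Slc25a22 was at -0.019 with the muscle score, -0.083 with the length and GC correction and -0.031 to 0.248 over omissions. Slc25a39 was at -0.037 with the length and GC correction and -0.103 to 0.209 over omissions, Slc25a27 at -0.055 to 0.374 over omissions, and Slc25a28 at 0.002 with the muscle score and -0.186 to 0.034 over omissions. Of 456 values of the 24 named genes under alternatives, 389 kept direction and side of the threshold, 54 lost the call, 4 gained it and 9 changed sign. Most of these genes were never called, and only called genes could lose a call. Of 19 alternatives each, the 1.5-fold test left aside, Mdh1 stayed called in 15 and Slc25a32 in 14. Sfxn5 and Vdac2 stayed called in 11, Vdac3 in 10, and Slc25a5 and Slc25a38 in 9. The cause was not tested. No paired analysis was possible because no animal code occurs in both groups.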
